A study of Mus musculus with 8 samples.

Results

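Rab GTPases are small membrane-bound switches that mark the compartments of the secretory and endocytic routes. In the GTP-bound state they recruit effectors, such as motors, tethers and adaptors. Exchange factors (GEFs) switch them on, GTPase-activating proteins (GAPs) switch them off, and a prenyl group keeps them on the membrane. In the epidermis this traffic serves the recycling of integrins and junction proteins, the secretion of lamellar bodies in the upper layers, and the handling of pigment granules passed on by melanocytes. All 64 genes in the deposited table whose symbol starts with Rab and a digit are described here, out of 15995 listed genes. Of these, 55 carry the name of a GTPase and 9 that of an effector or regulator, among them the 5 Rab11 family interacting proteins (Rab11fip1 to Rab11fip5).

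RNA was sequenced from the epidermis of newborn C57BL/6J mice, the standard black inbred strain, with 4 samples of genotype Zfp750-/- (knockout) and 4 of wild type. Zfp750 encodes a zinc finger transcription factor of the differentiating epidermis, and the study asked about its part in skin lipid metabolism and the barrier. The 2 genotypes shared strain, tissue and handling, and the labels name no treatment besides the genotype. No source used here gives the part of the gene that was removed, the sex and litter of the pups, or whether a sample was 1 pup or several. The p-values therefore measure only the spread between these samples. Values are FPKM (fragments per kilobase of transcript, scaled to the mapped fragments of the library), a length-corrected level that can be compared between genes.

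Zfp750 itself had 2.68, 2.31, 2.29 and 1.53 FPKM in the 4 knockouts, in the order of their numbers as in all such series of values, against 119, 111, 81.6 and 93.7 FPKM in the 4 wild types. In total 10637 to 11599 genes per library reached 1 FPKM. The tissue label matched its markers: the summed level of 7 suprabasal keratinocyte markers was 12237 to 18647 FPKM in the knockouts and 13064 to 16247 FPKM in the wild types. Of 8 basal keratinocyte markers, 5 were higher in the knockouts and none was lower. Libraries also differed within genotypes. Knockout 4 and wild type 1 had the lowest sums of melanocyte, fibroblast and basal keratinocyte markers within their genotypes. Xist, the RNA that silences an X chromosome, was high in knockouts 1 to 3 and in wild type 3 only. It had 126, 84.6, 150 and 1.84 FPKM in the knockouts, against 0.0223, 0.0087, 118 and 0.0082 FPKM in the wild types. Its level was thus not balanced between the genotypes. With the sex not given, what goes with Xist cannot be fully told apart from the genotype. The sample titles carry the codes 11, 14, 44 and 44 for knockouts 1 to 4 and 44, 44, 14 and 11 for wild types 1 to 4. No source used here says what these codes mean.

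A gene entered the test if 4 or more of the 8 libraries had at least 1 FPKM, and 54 of the 64 Rab genes did. Differences are log2 of FPKM + 1, knockout minus wild type, given with their standard error (SE), and calls are at a limma p of 0.05 adjusted over 11395 genes. Against this threshold 6 Rab genes were higher in the knockouts, 5 were lower and 43 were not called. The 6 make up 11.1% of the Rab genes tested, beside 6.72% of all genes tested that were called higher. The 5 make up 9.26%, beside 8.94% of all genes called lower. Knockout and wild-type values did not overlap for 12 of the 54, or 22.2%, beside 21.3% of all genes tested. These shares of lower calls and of separate groups were thus close to those of all genes. The median log2 difference was -0.07 over the Rab genes tested and 0.01 over all genes tested.

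**Figure D1:**
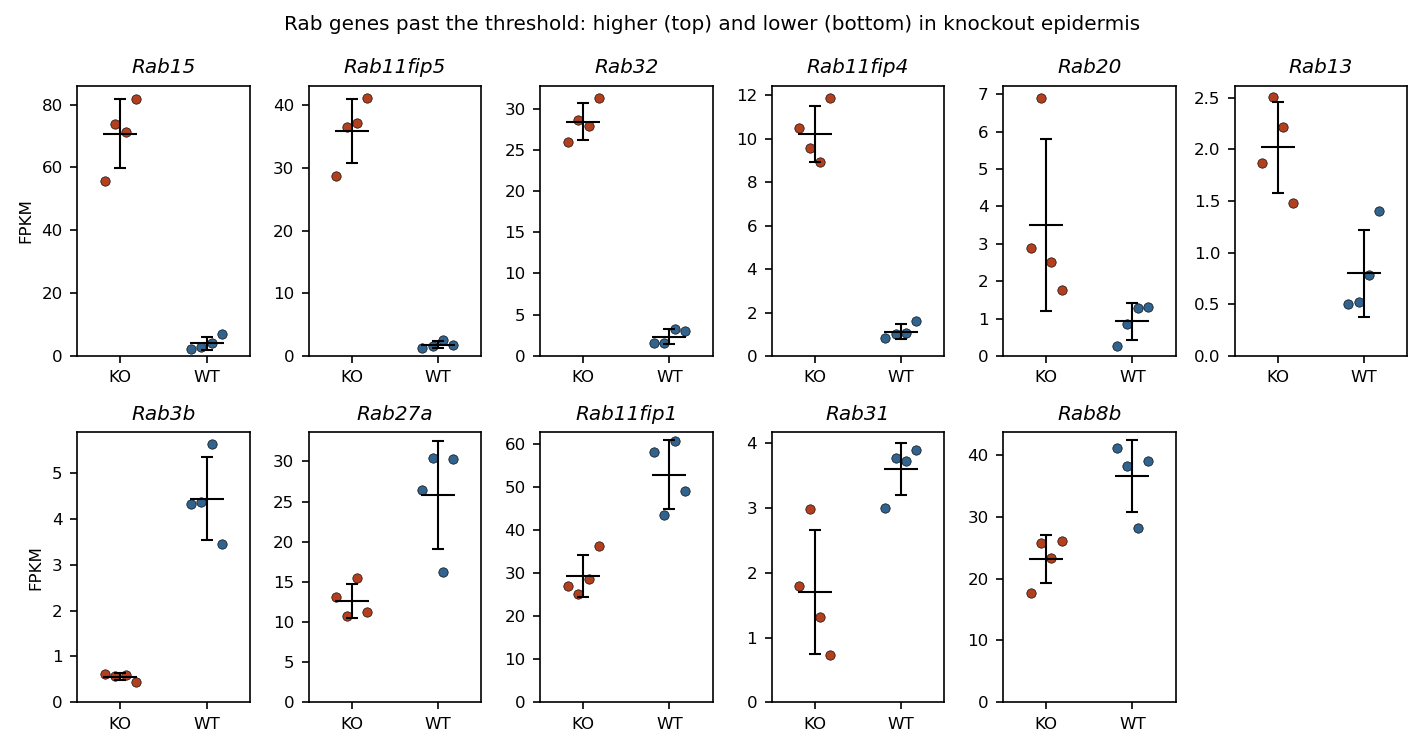
FPKM of the 11 Rab genes past the threshold, 1 point per library, knockout (KO) left of wild type (WT); the horizontal mark and bar are the mean and SD of 4 libraries, and each panel has its own axis from 0. The 6 genes of the top row were higher and the 5 of the bottom row lower in the knockouts, and in no panel do the points of the genotypes overlap.

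A few of these genes had very large differences. Rab15, Rab11fip5, Rab32 and Rab11fip4 ranked 9, 14, 23 and 53 from the highest of the 11395 log2 differences. Rab3b ranked 102 from the lowest. The stretch upstream of the start site, from RefSeq (GRCm38.p6), is shown for Rab15, Rab11fip5, Rab32 and Rab3b because the differences described below are largest for these genes and Rab11fip4. Each runs 5′ to 3′ on the gene's strand and stops where the exon annotated at that start begins, and capitals mark the box CACCC or its complement GGGTG, the short motif bound by Krüppel-like factors. They lie at chr12:76822554-76822774 (minus strand, Rab15), chr6:85374635-85374884 (minus, Rab11fip5), chr10:10558266-10558457 (minus, Rab32) and chr4:108878820-108879062 (plus, Rab3b). The annotation also has 1 transcript of Rab15 that starts further upstream, so its stretch lies inside the span of the gene. Of 4 starts listed for Rab15 only the first is shown.
Rab15: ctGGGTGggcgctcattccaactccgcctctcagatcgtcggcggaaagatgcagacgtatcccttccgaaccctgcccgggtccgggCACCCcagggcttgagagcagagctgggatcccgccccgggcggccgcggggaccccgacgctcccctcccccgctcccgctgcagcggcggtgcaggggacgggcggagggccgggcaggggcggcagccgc
Rab11fip5: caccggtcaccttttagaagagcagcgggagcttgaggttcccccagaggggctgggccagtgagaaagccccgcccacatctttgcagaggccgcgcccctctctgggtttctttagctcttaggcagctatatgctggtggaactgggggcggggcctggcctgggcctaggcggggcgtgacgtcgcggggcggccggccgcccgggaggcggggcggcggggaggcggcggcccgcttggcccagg
Rab32: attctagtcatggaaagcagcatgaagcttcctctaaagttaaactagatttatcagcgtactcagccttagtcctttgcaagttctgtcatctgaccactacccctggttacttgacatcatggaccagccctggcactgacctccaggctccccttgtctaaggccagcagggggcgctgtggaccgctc
Rab3b: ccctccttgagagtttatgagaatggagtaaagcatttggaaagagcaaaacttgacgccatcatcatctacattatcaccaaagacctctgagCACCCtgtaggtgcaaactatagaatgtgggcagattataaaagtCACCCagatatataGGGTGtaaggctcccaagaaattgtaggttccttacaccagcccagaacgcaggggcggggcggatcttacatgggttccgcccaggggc

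The box occurs 2 times in the Rab15 stretch and 3 times in that of Rab3b, and not in those of Rab11fip5 and Rab32. In the full 250 bases before the start of Rab32, part of which is annotated exon and not printed, it occurs 2 times. G and C make up 75.1% of the Rab15 stretch and 71.2% of that of Rab11fip5, against 51.6% for Rab32 and 48.1% for Rab3b. Over the 250 bases upstream of each start site, searched on both strands, CACCC is present in 46 of 70 promoters of Rab genes (65.71%) and in 52.01% of all 32851 promoters. CCNNAGGC, a motif known from binding of the human protein ZNF750, is present in 19 of the 70 (27.14%) and in 20.38% of all. It is in none of the 4 stretches shown, and it occurs 1 time in the 250 bases before the second listed start of Rab15. These are matches of letters only, and binding was not measured.

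The Rab11 family interacting proteins link Rab11 and Rab25 on recycling endosomes to motors and tethers. Of the 5, 3 were called (60%, beside 15.7% of all genes tested). Rab11fip5 (chr6:85334962-85374634, minus strand, up to 6 exons), which takes part in recycling to the apical surface, had 28.8, 36.6, 37.1 and 41.1 FPKM in the knockouts, against 1.21, 1.57, 2.52 and 1.79 FPKM in the wild types. All knockouts were far above all wild types, and the mean was 20.3 times as high. The difference was 3.74 ± 0.17 (log2, SE; limma adjusted p = 3.73e-06).

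Rab11fip4 (chr11:79591212-79698023, plus strand), which binds both Rab11 and Arf GTPases, had 10.5, 9.57, 8.93 and 11.9 FPKM in the knockouts, against 0.836, 0.994, 1.06 and 1.60 FPKM in the wild types. Wild-type levels were near the limit of the filter and knockout levels close together, with a difference of 2.41 ± 0.16 (limma adjusted p = 1.84e-05). Rab11fip1 (chr8:27138773-27174646, minus strand), also called Rab coupling protein and involved in integrin recycling, had 27.0, 25.2, 28.6 and 36.3 FPKM in the knockouts, against 58.1, 43.4, 60.8 and 49.2 FPKM in the wild types. It fell in the knockouts by 0.83 ± 0.15 on the log2 scale (limma adjusted p = 0.00538). That call was lost when only the libraries of code 44 were fitted, 2 against 2 (-0.62, adjusted p = 0.111).

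The 2 remaining family members were not called. Rab11fip3 averaged 10.7 ± 2.15 FPKM in the knockouts and 9.58 ± 1.06 FPKM in the wild types (SD, n = 4 each). Rab11fip2, which binds the motor myosin Vb, averaged 3.58 ± 0.636 FPKM in the knockouts and 3.13 ± 0.770 FPKM in the wild types (SD, n = 4 each). The make-up of the family differed more than its total. The ratio of Rab11fip5 to Rab11fip1 was 1.07 to 1.45 in the knockouts and 0.0209 to 0.0414 in the wild types. The summed level of the 5 genes was 79.6 to 106 FPKM in the knockouts and 57.3 to 78.5 FPKM in the wild types.

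Among the GTPases of the recycling endosome, Rab15 alone was called (12.5% of those tested, beside 15.7% of all genes tested). Rab15 (chr12:76797960-76822908, minus strand), which acts between sorting and recycling endosomes, had 55.7, 73.9, 71.2 and 81.9 FPKM in the knockouts, against 2.16, 2.92, 3.99 and 6.82 FPKM in the wild types. The lowest knockout was far above the highest wild type, and the mean was 17.8 times as high. The difference of 3.92 ± 0.26 (log2, SE; limma adjusted p = 1.85e-05) was the largest among the Rab genes tested. Rab15 ranked 11 of 64 by mean level in the knockouts and 41 of 64 in the wild types.

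Rab15 lies wholly within the span of Fntb, the beta subunit of protein farnesyltransferase, on the opposite strand. Fntb averaged 10.8 ± 1.35 FPKM in the knockouts and 7.24 ± 0.243 FPKM in the wild types (SD, n = 4 each), and its difference of 0.51 ± 0.12 was also called (limma adjusted p = 0.0235). None of the 75-base windows of the longest Rab15 transcript, 3158 bases, occurs in an annotated transcript of another gene on either strand. The search covered annotated transcripts only, and unspliced Fntb RNA lies outside it. The part of Fntb in the Rab15 values was not tested.

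Rab11a and Rab25, a relative of Rab11a largely confined to epithelia, were the Rab genes with the highest mean levels in both genotypes. Rab25 had 112, 127, 146 and 174 FPKM in the knockouts, against 225, 226, 165 and 191 FPKM in the wild types. Rab11a had 136, 149, 161 and 181 FPKM in the knockouts, against 229, 208, 178 and 183 FPKM in the wild types. For both, knockout 4 was above wild type 3, and the other libraries were separate. Neither passed the threshold, with differences of -0.53 ± 0.16 for Rab25 (limma adjusted p = 0.0530) and -0.35 ± 0.13 for Rab11a (limma adjusted p = 0.104). For Rab25 the 95% interval ran from -0.90 to -0.17, and for Rab11a from -0.64 to -0.06. Within codes 11, 14 and 44 the difference was -0.76, -0.37 and -0.50 for Rab25 and -0.43, -0.26 and -0.35 for Rab11a. Rab25 was called lower when knockout 4 or wild type 3 was left out, and not when any other library was. Rab11a was not called whichever library was left out (adjusted p from 0.0512 to 0.262). With the title code as a replicate block Rab25 and Rab11a were called lower (limma adjusted p = 0.0453 for Rab11a). Library weights gave the same calls (limma adjusted p = 0.0116 for Rab11a). With the level of Xist as a covariate neither was called (-0.20, limma adjusted p = 0.467 for Rab11a).

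The other 5 tested GTPases of recycling routes had small differences, between -0.28 for Rab35 and 0.21 for Rab4b. Rab14, a GTPase of Golgi-to-endosome transport, averaged 79.8 ± 11.1 FPKM in the knockouts and 74.7 ± 2.54 FPKM in the wild types (SD, n = 4 each). Rab11b, the close paralog of Rab11a, was far less abundant and nearly even, with a difference of -0.02 ± 0.12. Rab17, an epithelial GTPase, was under the filter, with no library above 0.200 FPKM.

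**Figure D2:**
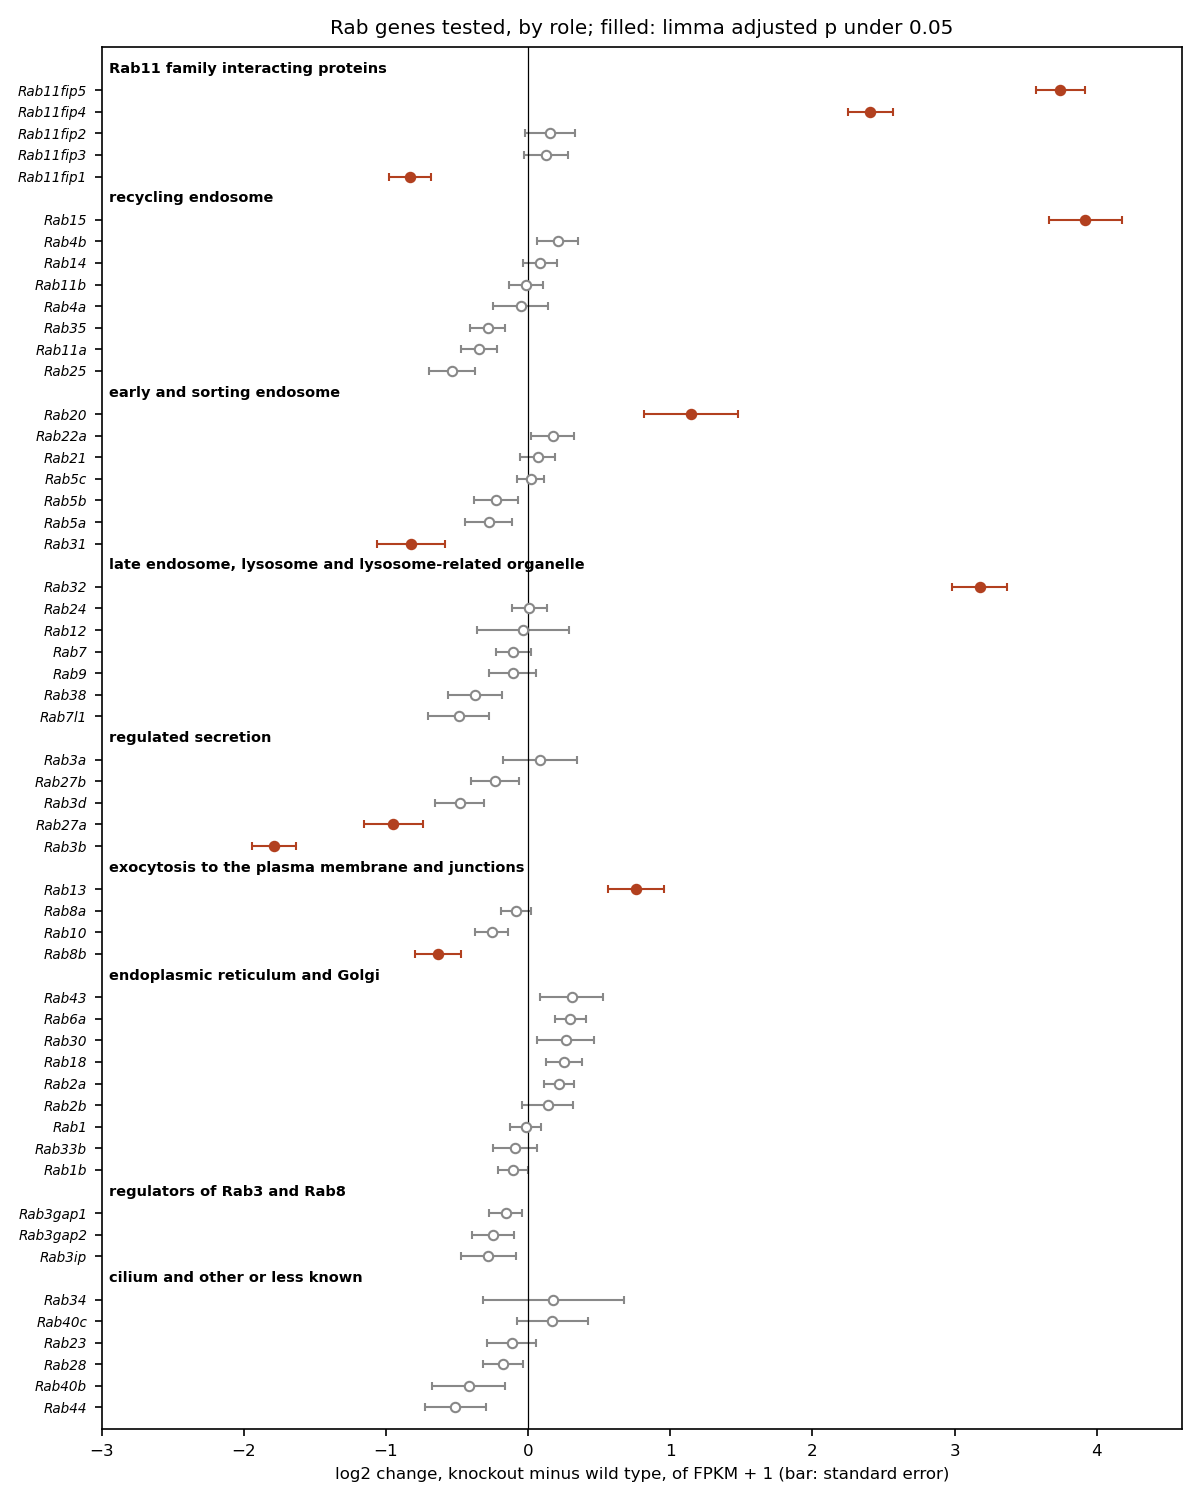
Log2 difference of FPKM + 1, knockout minus wild type, for the 54 Rab genes tested, grouped by role, with the standard error as a bar; filled points passed a limma adjusted p of 0.05. Most points lie within 0.5 of zero, and Rab15, Rab11fip5, Rab32 and Rab11fip4 on the right and Rab3b on the left stand apart from the other members of their groups.

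At the late endosome and lysosome, 1 of 7 tested genes was called (14.3%, beside 15.7% of all genes tested). Rab32 (chr10:10545002-10558265, minus strand), which with Rab38 brings enzymes to melanosomes and other lysosome-related organelles, had 25.9, 28.6, 27.9 and 31.2 FPKM in the knockouts, against 1.57, 1.53, 3.23 and 3.05 FPKM in the wild types. The knockouts lay within a narrow band far above the highest wild type. The difference was 3.18 ± 0.20 (log2, SE; limma adjusted p = 1.30e-05).

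Its close relative Rab38 went the other way without passing the threshold. It had 61.8, 71.6, 82.8 and 95.9 FPKM in the knockouts, against 117, 120, 73.0 and 97.7 FPKM in the wild types, and the genotypes overlapped (-0.37 ± 0.19, limma adjusted p = 0.233). The ratio of Rab32 to Rab38 was 0.326 to 0.419 in the knockouts and 0.0128 to 0.0443 in the wild types.

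Both genes are known from melanocytes, so the melanocyte markers stand beside them. The summed level of 10 melanocyte markers was 99.8, 93.9, 86.8 and 19.3 FPKM in the knockouts, against 15.6, 34.0, 53.4 and 90.6 FPKM in the wild types. None of the 9 that could be tested was called, and only Oca2 was at 0, in knockout 4 and wild type 2. Rab32 was at its highest in knockout 4, where the melanocyte sum was lowest among the knockouts. Rab38 was at its highest in wild types 1 and 2, where the melanocyte sum was lowest among the wild types. The part of melanocytes in the Rab32 and Rab38 values was not tested.

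Rab7, which drives the maturation of late endosomes, had the highest level of this group, with 94.6 ± 9.59 FPKM in the knockouts and 102 ± 12.6 FPKM in the wild types (SD, n = 4 each), a difference of -0.10 ± 0.12. Rab9 (-0.11 ± 0.17) and Rab24 (0.01 ± 0.12) also differed little. In the longest Rab24 transcript 44.1% of 75-base windows also belong to Prelid1 on the opposite strand. Rab7l1, also named Rab29 and known from lysosomes and the kinase LRRK2, had 1.80 and 1.96 FPKM in knockouts 1 and 2, but 3.58 and 3.48 FPKM in knockouts 3 and 4, against 3.24 to 5.21 FPKM in the wild types. Its genotypes overlapped (-0.49 ± 0.21, limma adjusted p = 0.161).

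At the early and sorting endosome, 2 genes of low level were called in opposite directions and the abundant Rab5 genes were not. The 2 make up 28.6% of the tested genes of this group, beside 15.7% of all genes tested that were called. Rab20 (chr8:11453518-11478710, minus strand), a GTPase of endosomes and phagosomes, had 2.88, 6.89, 2.51 and 1.77 FPKM in the knockouts, against 0.257, 0.858, 1.29 and 1.32 FPKM in the wild types. Knockout 2 was much higher than the other knockouts, and the gap between the nearest libraries of the genotypes was small. The difference was 1.15 ± 0.33 (limma adjusted p = 0.0438). Leaving out any 1 library other than knockout 4 ended the call, with 0.84 (adjusted p = 0.0754) without knockout 2. In its longest transcript 21.5% of 75-base windows also belong to E230013L22Rik, a noncoding gene on the opposite strand.

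Rab31 (chr17:65651729-65772752, minus strand), which moves cargo between the Golgi and endosomes, had 1.79, 2.98, 1.32 and 0.732 FPKM in the knockouts, against 3.001, 3.77, 3.73 and 3.88 FPKM in the wild types. Knockout 2 and wild type 1 almost touched, and knockout 4 was the lowest. The difference was -0.83 ± 0.24 (limma adjusted p = 0.0451), and the call was lost when any 1 library other than knockout 2 was left out (-0.63 to -0.89, adjusted p from 0.0557 to 0.111). Langerhans and myeloid cells also hold Rab31. Of the 9 tested markers of those cells, 7 were lower in the knockouts, and the sum of the 11 listed was 8.53 to 15.5 FPKM in the knockouts and 55.9 to 95.4 FPKM in the wild types. Of these markers only H2-Aa was at 0, in knockout 3. In such bulk samples fewer cells of a type and less RNA per cell cannot be told apart, and the part of these markers in the Rab31 difference was not tested.

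Rab5a, which controls fusion of early endosomes, had the highest level of this group. It averaged 108 ± 14.2 FPKM in the knockouts and 133 ± 28.4 FPKM in the wild types (SD, n = 4 each), and the genotypes overlapped (-0.28 ± 0.17, limma adjusted p = 0.316). Rab5c was nearly even, with 82.5 ± 5.07 FPKM in the knockouts and 81.5 ± 3.78 FPKM in the wild types (SD, n = 4 each). For Rab5c the 95% interval of the difference ran from -0.20 to 0.23. Rab5b, Rab21 and Rab22a had differences between -0.23 and 0.17 and overlapped as well.

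Rab3 and Rab27 proteins bring secretory granules to the plasma membrane, and here both called genes were lower in the knockouts. They make up 40% of the tested genes of this group, beside 15.7% of all genes tested that were called. Rab3b (chr4:108879063-108943324, plus strand) had 0.622, 0.567, 0.607 and 0.445 FPKM in the knockouts, against 4.32, 4.37, 5.62 and 3.44 FPKM in the wild types. The knockouts were close together and all below 1 FPKM, so the gene entered the test through its 4 wild types alone. With a filter of 5 FPKM it was not tested. The difference was -1.79 ± 0.16 (log2, SE; limma adjusted p = 9.67e-05), and the mean of the knockouts was 0.126 times that of the wild types. In its longest transcript 7.56% of 75-base windows also belong to the antisense gene 8030443G20Rik.

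Rab27a (chr9:73044854-73097629, plus strand), which ties melanosomes and secretory granules to myosin motors, had 13.1, 10.8, 15.4 and 11.2 FPKM in the knockouts, against 26.4, 30.4, 16.2 and 30.3 FPKM in the wild types. Wild type 3 was close to the knockouts, and the other wild types were well above them. The difference was -0.95 ± 0.21 (limma adjusted p = 0.0136). Its paralog Rab27b averaged 32.05 ± 7.03 FPKM in the knockouts and 37.4 ± 5.08 FPKM in the wild types (SD, n = 4 each) and was not called (-0.23 ± 0.17). The ratio of Rab27a to Rab27b was 0.280 to 0.531 in the knockouts and 0.424 to 0.918 in the wild types, and these ranges overlapped.

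Neuroendocrine and pigment cells are known to express Rab3b and Rab27a, so their markers are given. The summed level of 9 Merkel and neuroendocrine markers was 2.60 to 3.75 FPKM in the knockouts and 28.6 to 60.2 FPKM in the wild types. Chga, the granule protein chromogranin A, made up most of the wild-type sum and was the only one of the 9 that passed the filter, and it was lower in the knockouts. The defining Merkel markers Atoh1 and Krt20 were at or under 0.784 FPKM in each library of both genotypes, with none at 0. The part of these cells in the Rab3b and Rab27a differences was not tested. For Rab27a the sum of melanocyte markers varied within both genotypes as given above, with none of the 9 tested called.

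Rab3d, the most abundant of the secretion group and known from granule release in exocrine and mast cells, had 34.9, 37.2, 49.6 and 56.1 FPKM in the knockouts, against 71.6, 67.2, 53.0 and 55.6 FPKM in the wild types. Knockout 4 was above wild types 3 and 4, and the other knockouts were below all wild types. The gene was not called (-0.48 ± 0.17, limma adjusted p = 0.0948), but without knockout 4 it was (-0.60, adjusted p = 0.0298). With the title code as a replicate block (limma adjusted p = 0.0128) or with library weights (limma adjusted p = 0.00615) it was called as well. Leaving out any other library gave no call (adjusted p from 0.0907 to 0.233). With the level of Xist as a covariate the difference was -0.27 and not called (limma adjusted p = 0.449). Rab3a was at 1.92 ± 0.846 FPKM in the knockouts and 1.74 ± 0.688 FPKM in the wild types (SD, n = 4 each) and overlapped. Rab3c, Rab26 and Rab37 were under the filter, with no library above 0.306 FPKM.

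The 3 tested regulators of Rab3 and Rab8 did not pass, beside 15.7% of all genes tested that did. Rab3gap1, which with Rab3gap2 forms the GAP of Rab3 and also activates Rab18, averaged 17.2 ± 0.987 FPKM in the knockouts and 19.3 ± 2.15 FPKM in the wild types (SD, n = 4 each). In the longest Rab3gap2 transcript 28.1% of 75-base windows also belong to Iars2 on the opposite strand. Rab3gap2 and Rab3ip, the Rab8 exchange factor Rabin8, differed by -0.25 ± 0.15 and -0.28 ± 0.20. The related exchange factor gene Rab3il1 stayed just under the filter, with 0.992 FPKM as its highest value. It had 0.0606, 0.123, 0.132 and 0.0889 FPKM in the knockouts, against 0.586, 0.786, 0.992 and 0.482 FPKM in the wild types. The genotypes were separate, and in the fit without a filter its difference was -0.63 ± 0.09 (limma adjusted p = 0.00302).

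Of the 4 GTPases of exocytosis and junctions, Rab13 was higher and Rab8b lower in the knockouts (50% called, beside 15.7% of all genes tested). Rab13 (chr3:90213695-90226385, plus strand), which brings proteins to tight junctions, had 1.87, 2.51, 2.21 and 1.48 FPKM in the knockouts, against 0.501, 0.519, 0.784 and 1.40 FPKM in the wild types. Knockout 4 and wild type 4 were nearly level, so the separation of the genotypes rests on a small gap. The difference was 0.76 ± 0.20 (limma adjusted p = 0.0289). Leaving out any 1 library other than knockout 4 or wild type 4 ended the call (0.68 to 0.78, adjusted p from 0.0568 to 0.0865).

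Rab8b (chr9:66843664-66919687, minus strand), which carries post-Golgi vesicles to the surface, had 17.7, 25.7, 23.3 and 26.1 FPKM in the knockouts, against 41.1, 38.1, 28.1 and 38.9 FPKM in the wild types. Wild type 3 was just above the highest knockout. The difference was -0.64 ± 0.16 (limma adjusted p = 0.0279). The call was lost without knockout 1 or 3 or wild type 1, 2 or 4 (-0.52 to -0.64, adjusted p from 0.0603 to 0.0866). Rab8a, at 41.0 ± 3.38 FPKM in the knockouts and 43.6 ± 2.41 FPKM in the wild types (SD, n = 4 each), differed by only -0.09 ± 0.10. Rab10, which delivers cargo to the basolateral membrane, was the most abundant of these 4, with 126 ± 13.7 FPKM in the knockouts and 150 ± 12.7 FPKM in the wild types (SD, n = 4 each; -0.26 ± 0.12, limma adjusted p = 0.179).

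None of the 9 tested GTPases of the endoplasmic reticulum and Golgi was called, beside 15.7% of all genes tested, and their median difference was 0.22. Rab1, the most abundant, which serves transport to the Golgi, averaged 116 ± 9.51 FPKM in the knockouts and 118 ± 10.3 FPKM in the wild types (SD, n = 4 each), with a 95% interval of the difference from -0.26 to 0.23. Rab6a, a Golgi GTPase, was the only tested Rab gene whose genotypes were separate without a call. It had 63.0, 64.2, 62.5 and 59.2 FPKM in the knockouts, against 51.1, 49.7, 43.7 and 58.2 FPKM in the wild types. Knockout 4 and wild type 4 almost met, and the difference was 0.30 ± 0.11 (limma adjusted p = 0.101). In its longest transcript 20.2% of windows also belong to Mrpl48 on the opposite strand. Rab2a (0.22 ± 0.11) and Rab18 (0.25 ± 0.13), a GTPase of the reticulum and of lipid droplets, were not called either. Rab1b (-0.11) and the Golgi GTPases Rab33b (-0.09), Rab30 (0.26) and Rab43 (0.31), as well as Rab2b (0.14), also overlapped between genotypes. Of the windows of Rab43, 89.9% also belong to the overlapping gene Gm45140 on the same strand, so its level is uncertain. Of those of Rab2b, 68.1% also belong to Gm43766 on the opposite strand.

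Rab33a and Rab6b of the same group were under the filter and low. Rab33a had 0.359, 0.621, 0.515 and 0.345 FPKM in the knockouts, against 0.191 FPKM in wild type 1 and 0 in the other wild types, where the table lists no value. With these missing values taken as 0 the genotypes were separate. The difference in the fit without a filter was 0.48 ± 0.08 (limma adjusted p = 0.00706), and it rests on the same zeros. Rab6b had 0.281 to 0.413 FPKM in the knockouts and 0.0840 to 0.219 FPKM in the wild types. It did not pass in that fit (limma adjusted p = 0.0586). Rab39b was at or under 0.107 FPKM in each library.

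None of the 6 tested genes with roles at the cilium or with lesser known roles was called, beside 15.7% of all genes tested. Rab40c, which recruits a ubiquitin ligase complex and had the highest level of these, averaged 19.8 ± 6.44 FPKM in the knockouts and 16.9 ± 3.44 FPKM in the wild types (SD, n = 4 each). Rab34, which takes part in cilium formation, had the largest SE of the Rab genes tested (0.49), with 16.7, 19.8, 13.2 and 3.25 FPKM in the knockouts, against 4.97, 9.36, 12.6 and 15.1 FPKM in the wild types. Within each genotype both Rab34 and Rab12 were lowest in knockout 4 and wild type 1. The sum of 8 fibroblast markers was also lowest there, at 94.6 and 109 FPKM, as were the sums of melanocyte and basal keratinocyte markers. The part of any of these cells in the Rab34 and Rab12 values was not tested. Rab44, a large Rab protein with calcium-binding EF hands, had 1.43 and 1.49 FPKM in knockouts 1 and 2 and 2.52 and 3.61 FPKM in knockouts 3 and 4, against 3.17 to 3.80 FPKM in the wild types. Only knockout 4 overlapped the wild types (-0.51 ± 0.21, limma adjusted p = 0.150). Rab23, an inhibitor of hedgehog signalling (-0.12), Rab28 (-0.18) and Rab40b (-0.42) overlapped as well. Rab19 and Rab36 were under the filter, at or below 0.216 FPKM in each library.

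**Figure D3:**
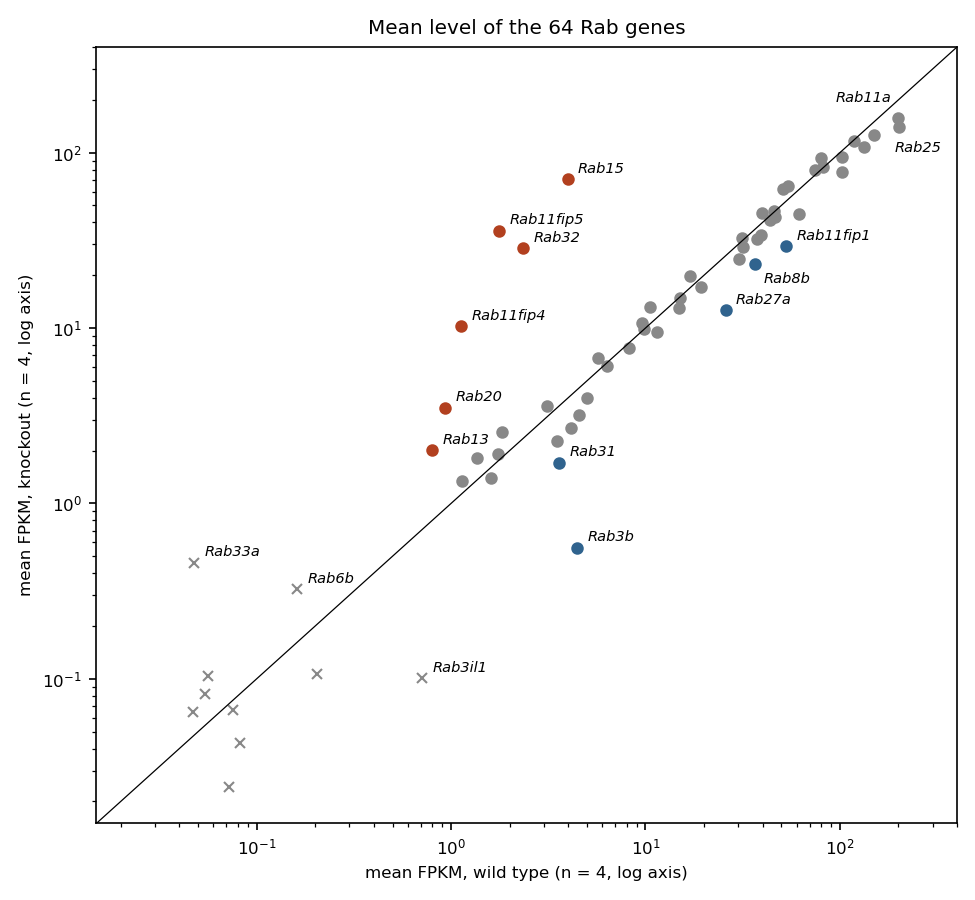
Mean FPKM of the 64 Rab genes, knockout on the vertical and wild type on the horizontal axis, both logarithmic, n = 4 each; circles passed the filter, crosses did not, red circles were called higher and blue circles lower. The line marks equal levels, and Rab15, Rab11fip5, Rab32 and Rab11fip4 lie far above it while the abundant genes at the upper right lie close to it.

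The abundant genes kept the same order of magnitude in both genotypes. The summed level of the 55 GTPases was 1617 to 1963 FPKM in the knockouts and 1818 to 2074 FPKM in the wild types, with overlap. The 5 genes with the largest mean share over the wild types (Rab25, Rab11a, Rab10, Rab5a and Rab1) held 34.3% to 36.6% of that sum in the knockouts and 39.6% to 43.2% in the wild types. In this order Rab25 and Rab11a lay within each other's spread in the wild types, and Rab1 lay within the spread of Rab5a. The share of Rab15 was 3.85% ± 0.315 in knockout and 0.207% ± 0.111 in wild-type libraries (SD, n = 4 each). A share also moves when the other genes of the sum move, so these shares are a description and were not tested.

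**Figure D4:**
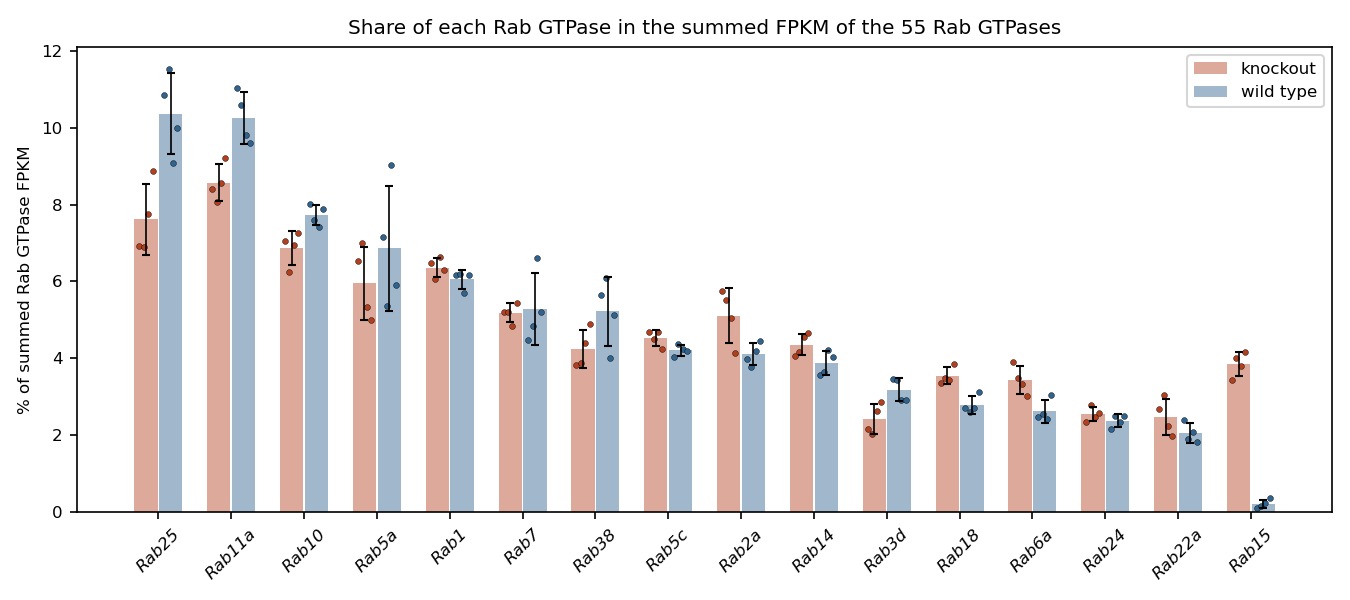
Share of the summed FPKM of the 55 Rab GTPases for the 16 genes with the largest mean share in either genotype, in percent, ordered by the wild-type mean; bars are means with SD, points are the 4 libraries, and knockout stands left of wild type. Rab15 holds 3.85% in knockout and 0.207% in wild-type libraries, and Rab25 and Rab11a hold smaller shares in each knockout than in any wild type.

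Genes that act on Rab proteins without bearing the name were counted from lists of exchange factors, GAPs, prenylation factors and effectors. Of 153 listed genes, 151 were in the table and 131 were tested. Of these, 7 were higher (5.34%, beside 6.72% of all genes) and 12 were lower (9.16%, beside 8.94%), and their median difference was -0.06. These shares were thus close to those of all genes.

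Of 39 exchange factors tested, 1 was higher (2.56%, beside 6.72% of all genes) and 4 were lower (10.3%, beside 8.94%). Dennd4a, an exchange factor for Rab10, averaged 2.14 ± 0.0885 FPKM in the knockouts and 3.95 ± 0.227 FPKM in the wild types (SD, n = 4 each; -0.66 ± 0.12, limma adjusted p = 0.00647). Rabgef1, which activates Rab5, differed by -0.54 ± 0.12, and the Rab35 exchange factor Dennd1b by -1.31 ± 0.32. Dennd6a, which acts on Rab14, fell by 0.65 ± 0.17 on the log2 scale. Dennd2c, an exchange factor for Rab9, was higher, with 0.55 ± 0.16 (limma adjusted p = 0.0404). The knockout and wild-type values of these 5 genes did not overlap, as was so for 21.3% of all genes tested.

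Of 34 GAPs tested, 3 were higher (8.82%, beside 6.72% of all genes) and 3 were lower (8.82%, beside 8.94%). Evi5, which binds Rab11, had 13.6, 15.9, 17.8 and 19.6 FPKM in the knockouts, against 37.5, 31.3, 41.2 and 29.9 FPKM in the wild types, well apart (-1.02 ± 0.15, limma adjusted p = 0.00177). Grtp1 (-1.01 ± 0.17) and Tbc1d20, a GAP of Rab1 and Rab18 (-0.65 ± 0.12), were also lower. Sgsm2, known as RUTBC1 and as a GAP for Rab32 in biochemical assays, had 10.4, 12.2, 17.1 and 20.7 FPKM in the knockouts, against 5.87, 6.84, 6.29 and 5.88 FPKM in the wild types. It was higher in all knockouts, most in knockouts 3 and 4 (1.11 ± 0.20, limma adjusted p = 0.00519). Rabgap1l (0.90 ± 0.16) and Tbc1d10a, a GAP for Rab27a (0.49 ± 0.12), were higher too.

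None of the 7 tested genes for prenylation and extraction from membranes was called, beside 15.7% of all genes tested. The smallest p was that of Chm, Rab escort protein 1, with 11.1 ± 0.998 FPKM in the knockouts and 14.8 ± 1.46 FPKM in the wild types (SD, n = 4 each; -0.38 ± 0.12, limma adjusted p = 0.0611). Rabggta (0.20 ± 0.11), a subunit of the prenyl transferase, Rabac1 (-0.22 ± 0.17) and Gdi2 (0.13 ± 0.13) followed.

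Of 51 effectors tested, 3 were higher (5.88%, beside 6.72% of all genes) and 5 were lower (9.80%, beside 8.94%). Micall2, an effector of Rab13 and Rab8 at junctions, had 12.5, 14.3, 10.8 and 8.999 FPKM in the knockouts, against 1.57, 1.96, 2.54 and 2.58 FPKM in the wild types. All knockouts were well above all wild types (1.99 ± 0.18, limma adjusted p = 0.000106). Optn, optineurin, which binds Rab8, averaged 1.55 ± 0.263 FPKM in the knockouts and 0.329 ± 0.109 FPKM in the wild types (SD, n = 4 each; 0.94 ± 0.15). Lrrk1, a kinase of Rab7, was called with little margin (0.57 ± 0.17, limma adjusted p = 0.04995).

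Lower effectors included Bicd1, which links Rab6 vesicles to dynein, with 0.331 ± 0.116 FPKM in the knockouts and 2.64 ± 0.247 FPKM in the wild types (SD, n = 4 each; -1.45 ± 0.14, limma adjusted p = 0.000162). Osbpl1a, a sterol-binding Rab7 effector, had 41.1, 53.1, 59.3 and 72.4 FPKM in the knockouts, against 109, 105, 110 and 92.1 FPKM in the wild types. Every knockout was below every wild type (-0.89 ± 0.16). Appl2, a Rab5 effector, differed by -0.96 ± 0.21, the motor Myo5b, which works with Rab11, by -0.54 ± 0.15, and the golgin Golga5 by -0.42 ± 0.11.

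For each of the 11 called Rab genes, an exact permutation test (two-sided, 70 ways to split the libraries) gave p = 0.0286, the smallest this design allows. Separate groups fix that p in advance, and all 11 have them, so it adds no support to the calls. Rab6a, which was not called, has the same permutation p. In all 20 alternative fits run, as far as the gene was tested there, Rab15, Rab11fip5, Rab32, Rab11fip4 and Rab3b kept both direction and call. The other 6 kept direction but lost the call in at least 1. With the level of Xist as a covariate 5 genes were no longer called. Their differences in that fit were -1.03 for Rab31, 0.84 for Rab20, -0.40 for Rab8b, 0.66 for Rab13 and -0.74 for Rab27a. Within codes 11, 14 and 44 the log2 difference of Rab15 was 2.86, 3.91 and 4.46, that of Rab11fip5 was 3.42, 3.42 and 4.07, and that of Rab32 was 2.73, 2.81 and 3.58. A limma test of whether the genotype difference itself differed between code 44 and codes 11 and 14 called none of the 11395 genes. Rab32 had the smallest unadjusted p of the Rab genes there, 0.00444, adjusted to 0.182.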

How the data were processed

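Total RNA from 8 epidermis samples was depleted of ribosomal RNA and made into stranded libraries, sequenced in pairs on an Illumina NextSeq, per the labels' protocols. The authors deposited 1 table of FPKM values per gene symbol and library. Per the submitters' processing notes the build was mm10. Not given in the sources used here: aligner, annotation and use of strand in counting, and overlapping genes may therefore share fragments. FPKM carry no read counts, so the absolute depth is unknown and no count model was used. Steps between low values put the relative depths within 1.47 times that of knockout 1.

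A missing value was taken as 0 (6 Rab genes have one). All listed genes have a value in knockout 1, and each other library has 603 to 1275 missing values. Krt1, Krt10, Flg2 and Rn45s, listed at 0 in some libraries and very high in others, were left out as possible failed estimates. Genes reaching 1 FPKM in at least 4 of 8 libraries (3 of 7 or 2 of 4 in smaller fits) were compared on log2(FPKM + 1) with limma 3.58.1 (R 4.3.3), fitting a mean-variance trend, with Benjamini-Hochberg adjustment over 11395 genes. This scale understates the change of low genes.

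Named were Zfp750, all called Rab genes, all with separate groups, the most abundant of each role, those next to the filter, and for each pathway list the 4 with the smallest p and called examples; other Rab genes were added for coverage. The genes, lists and roles were chosen with earlier results of these data known. An older symbol was used for 4 pathway genes. Coordinates and shared 75-base windows are from GENCODE release M21 (GRCm38, the same build as mm10), and promoters from RefSeq (GRCm38.p6) were searched for 52 Rab genes. The alternatives were pseudocount, filters, scalings, weights, covariates, title codes and leaving out each library.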

Additional observations from a re-analysis of the deposited data

Results flagged for a closer look

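In each group of 4 libraries the distance of the outermost library was set against the group's range for the 54 Rab genes tested, and 2 of 108 groups stood out; chance gives about 1 in 20. Rab31 in wild type 1 was at 3 FPKM, with the other wild types between 3.73 and 3.88 FPKM. Rab4b in wild type 1 was at 4.65 FPKM, with the other wild types between 5.98 and 6.17 FPKM. For Rab4b 92.9% of the 75-base windows of its longest transcript also belong to the overlapping gene Gm21983 on the same strand. Without wild type 1 the difference of Rab31 was -0.89 (limma adjusted p = 0.0751).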

How the results depend on the processing

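The count of lower Rab genes, 5, was 3 with a filter of 5 FPKM, 12 with library weights, 2 with the Xist covariate and 3 to 7 when each library was left out. The count of higher Rab genes, 6, was 4 to 6 when each was left out. For the regulators and effectors without the Rab name, 7 higher became 17 with weights, 4 with Xist and 4 with code 44 alone, and 4 to 7 with a library left out. The 12 lower became 29 with weights, 4 with code 44 alone and 7 (without wild type 1) to 22 (without knockout 4). The cause of these shifts was not tested.

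With the title code as a replicate block 8 Rab genes were lower, and Rab25, Rab3d (adjusted p = 0.0128) and Rab11a (adjusted p = 0.0453) were added to the calls. Knockout and wild-type samples that share a code had correlations of 0.389 for code 11, 0.238 for code 14 and -0.154 to 0.427 for code 44. Those with different codes had correlations of -0.435 to 0.202. The meaning of the codes is not given, so the main fit does not use them. Without knockout 4, Rab44, Rab25 and Rab3d were called and Rab31 was not. Rab31 lost its call in 12 of 19 fits, Rab20 in 10 of 19, Rab13 in 9 of 19, Rab8b in 7 of 20, Rab27a in 2 of 20 and Rab11fip1 in 1 of 20. No difference of a called Rab gene changed sign. Scalings moved the median of all genes to between -0.04 and 0.01. Low levels limit what can be said of Rab13, Rab20, Rab31, Rab3b and the 10 genes under the filter.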
